A study of Mus musculus with 4 samples.

Results

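The expression of 36 genes of autophagy and the lysosome was compared in mouse embryonic stem (ES) cells with and without p53, a transcription factor activated by damaged DNA. The genes were taken by name, as core autophagy (Atg) genes, their regulators and a few lysosomal genes, and all transcripts of a gene in the deposited tables were summed. All 36 were found, with 47 transcripts, among 22405 named genes. All 36 also reached 1 FPKM (fragments mapped to a transcript, scaled to its length and to the library's depth) in at least 1 library, as did 13014 genes in all.

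The groups were p53-/- cells given Adriamycin, p53-/- cells left untreated, p53+/+ cells given Adriamycin and p53+/+ cells left untreated, with 1 library each. Adriamycin (doxorubicin) poisons topoisomerase II and so breaks DNA, and was given at 0.5 uM for 8 h. All 4 cultures held ES cells of strain C57BL/6X129Sv mix at under 20 passages, kept in serum with leukemia inhibitory factor, and poly(A) RNA was read. The sources used here do not say how p53 was removed or how many clones each genotype stands for. The comparisons ask how the genes respond to DNA damage in each genotype and how the genotypes differ with and without it. There are no replicates, so the spread between cultures is unknown and nothing was tested.

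Autophagy delivers cytoplasm to the lysosome in double-membraned vesicles. The ULK1 kinase complex starts it, a PI 3-kinase complex around Beclin 1 marks the membrane, ATG9, ATG2 and WIPI proteins supply lipid, and a conjugation machinery attaches ATG8 proteins such as LC3 to the growing membrane. The transcription factor TFEB switches on many lysosomal and autophagy genes through a short element called the CLEAR box. p53 is known as a regulator of autophagy, and DRAM1, a lysosomal membrane protein, was described in human cells as a p53 target that promotes it.

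Aligned sequence over all transcripts came to 3.34 to 4.32 gigabases a library. Trp53, the targeted gene, summed to 76.5 FPKM in treated and 78.6 FPKM in untreated p53-/- cells, against 165 FPKM in treated and 216 FPKM in untreated p53+/+ cells, so it was lower but not absent in the p53-/- libraries, and the deleted exons are not given in the sources used here. Of 16 canonical p53 targets, 0 were past the step defined below after Adriamycin in p53-/- cells and 14 were higher in p53+/+ cells. The 10 ES cell markers were all above 1 FPKM in all 4 libraries. Other cell type markers differed between the genotypes. The 14 fibroblast markers summed to 455 FPKM in treated and 514 FPKM in untreated p53-/- cells, against 22.1 FPKM in treated and 12.6 FPKM in untreated p53+/+ cells, where 3 (treated) and 4 (untreated) of them were listed at 0. The 11 primitive endoderm markers summed to 27.8 FPKM in treated and 31.7 FPKM in untreated p53-/- cells, against 109.6 FPKM in treated and 109.97 FPKM in untreated p53+/+ cells. In such bulk RNA, fewer cells of a type and less RNA per cell cannot be told apart.

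The median of the 36 genes lay above the median of all genes in every library, though not each of the 36 did. Their median level was 16.4 FPKM in treated and 14.5 FPKM in untreated p53-/- cells, and 15.6 FPKM in treated and 16.7 FPKM in untreated p53+/+ cells. The medians over all 13014 genes lay between 7.85 and 9.22 FPKM. Lamp1 and Ctsd, which encode an abundant lysosomal membrane glycoprotein and the aspartic protease cathepsin D, were the highest 2 of the 36 in all 4 libraries. Sqstm1, which encodes the cargo receptor p62, came next in 3 libraries and after Ulk1 in treated p53+/+ cells. At the low end, Dram1, Ulk2, Atg4a, Atg4c and Atg10 stayed under 4 FPKM throughout. The least covered of the 36 genes carried 0.00495 to 0.0145 megabases of aligned sequence in a library, and the median gene 0.149 to 0.236 megabases.

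**Figure D1:**
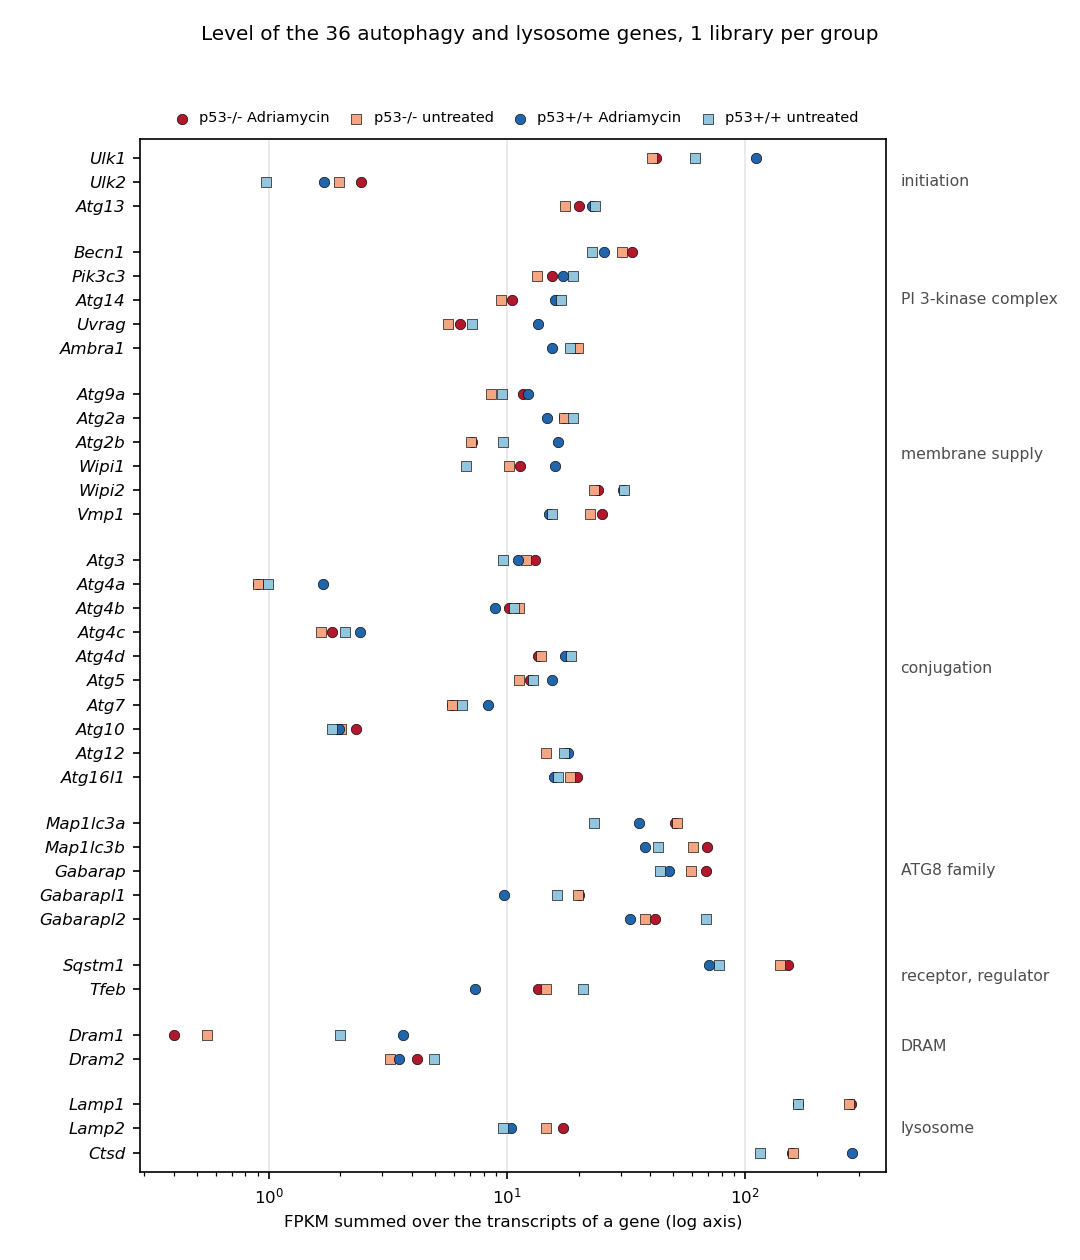
FPKM of each of the 36 genes (log axis), summed over its transcripts, in the 4 libraries, ordered by role; each point is 1 library. Lamp1, Ctsd and Sqstm1 lie on the right, and Dram1 is the gene with the widest gap between p53-/- and p53+/+ points.

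Every difference below is one of log2(FPKM + 1), a scale that makes changes of low genes look smaller than they are. A gene is called higher or lower where this difference is at least 1, the step used throughout. After Adriamycin in p53+/+ cells, 2 of the 36 genes were higher, Ctsd and Wipi1, and 2 were lower, Tfeb and Gabarapl2. Over all 13014 genes, 11.4% were higher and 2.78% were lower. The share of the 36 was 5.56% in each direction, on 2 genes each, which is too few to be set apart from that background. Of the 36 genes, 26 moved by less than 0.5. The median difference of the 36 was 0.06, beside 0.05 over all genes. Of all genes past the step, 80.4% were higher ones. Quantile normalization shifted the median of all genes by -0.15 and made this 64.0%.

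Ctsd (chromosome 7, 149561821 to 149573775 in mm9) stood at 157 FPKM in treated and 158 FPKM in untreated p53-/- cells, and at 279.9 FPKM in treated and 115 FPKM in untreated p53+/+ cells. The treated p53+/+ library was the highest and the untreated p53+/+ library the lowest, with both p53-/- libraries between. The difference was -0.01 in p53-/- cells and 1.27 in p53+/+ cells, where the treated level was 2.43 times the untreated one. Its deposited upper bound lay below its FPKM in all 4 libraries, so no bounds are given for it.

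Wipi1 (chromosome 11, 109434835 to 109472703), whose product binds the phosphoinositide made by the PI 3-kinase complex, stood at 11.4 FPKM in treated and 10.2 FPKM in untreated p53-/- cells. In p53+/+ cells it stood at 15.8 FPKM (deposited 95% bounds 13.4 to 16.4) when treated and 6.77 FPKM (5.49 to 7.31) when untreated, a ratio of 2.34. Treated p53+/+ cells were highest and untreated p53+/+ cells lowest, with both p53-/- libraries between. The difference of 1.12 in p53+/+ cells became 0.82 with a pseudocount of 5 FPKM, below the step.

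Tfeb (chromosome 17, 47873986 to 47929365) gave the largest lower difference of the 36 genes. It stood at 13.5 FPKM in treated and 14.7 FPKM in untreated p53-/- cells, and at 7.35 FPKM in treated and 20.8 FPKM in untreated p53+/+ cells. The order was the reverse of that of Wipi1, with treated p53+/+ cells lowest and untreated p53+/+ cells highest. The difference was -0.11 in p53-/- cells and -1.39 in p53+/+ cells, where the treated level was 0.353 of the untreated one.

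Gabarapl2 (chromosome 8, 114464603 to 114476815), an ATG8 family gene, stood at 41.9 FPKM in treated and 37.9 FPKM in untreated p53-/- cells, and at 32.8 FPKM in treated and 68.8 FPKM in untreated p53+/+ cells. Here the untreated p53+/+ library stood apart from the other 3. The difference in p53+/+ cells was -1.04, but -0.96 with a pseudocount of 5 FPKM and -0.99 after quantile normalization, both short of the step. The treated level was 0.477 of the untreated one, and its upper bounds lay below its FPKM in all 4 libraries. ES cell markers also changed after Adriamycin. Of 10 such markers 2 were lower in p53+/+ cells, Nanog and Zfp42, too few to be set apart from the 2.78% of all genes. The list summed to 3027 FPKM in treated and 4461 FPKM in untreated p53+/+ cells. In p53-/- cells 0 were past the step but 8 lay below 0, with sums of 2784 FPKM in treated and 3176 FPKM in untreated cells. Zfp42 had a difference of -0.90 there. The part of this in the values above was not tested.

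The bases before the starts of these 4 genes are shown because they are the genes past the step in the p53+/+ response. Their promoters can so be read side by side. The Tfeb start that lies 894 bases after its upstream start is not printed. Each run holds the 250 bases before a RefSeq start, 5' to 3' on the gene's strand, in GRCm38.p6 (the deposited tables use mm9). Capitals mark matches, on either strand, to the E-box core CACGTG, to the core of the CLEAR box TCACGTGA, which contains that E-box, to the GC box GGGCGG and to the p53 decamer consensus.
Ctsd, chr7:142387828-142388077, minus strand: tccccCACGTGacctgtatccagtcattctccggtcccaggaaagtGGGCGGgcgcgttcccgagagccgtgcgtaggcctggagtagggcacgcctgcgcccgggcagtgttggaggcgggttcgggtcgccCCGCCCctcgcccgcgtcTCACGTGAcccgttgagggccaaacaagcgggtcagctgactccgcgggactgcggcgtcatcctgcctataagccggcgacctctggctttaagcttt
Wipi1, chr11:109611390-109611639, minus strand: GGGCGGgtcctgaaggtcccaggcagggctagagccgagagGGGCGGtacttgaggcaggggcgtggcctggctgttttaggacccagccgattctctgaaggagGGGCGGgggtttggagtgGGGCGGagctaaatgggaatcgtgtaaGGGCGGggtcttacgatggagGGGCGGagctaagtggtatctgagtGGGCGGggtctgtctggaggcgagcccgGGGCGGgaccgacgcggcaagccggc
Gabarapl2, chr8:111940453-111940702, plus strand: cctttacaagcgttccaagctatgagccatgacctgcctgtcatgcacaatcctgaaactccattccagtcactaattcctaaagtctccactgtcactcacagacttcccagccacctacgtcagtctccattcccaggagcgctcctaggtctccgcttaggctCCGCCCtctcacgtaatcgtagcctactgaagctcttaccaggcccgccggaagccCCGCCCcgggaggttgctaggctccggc
Tfeb upstream start, chr17:47736787-47737036, plus strand: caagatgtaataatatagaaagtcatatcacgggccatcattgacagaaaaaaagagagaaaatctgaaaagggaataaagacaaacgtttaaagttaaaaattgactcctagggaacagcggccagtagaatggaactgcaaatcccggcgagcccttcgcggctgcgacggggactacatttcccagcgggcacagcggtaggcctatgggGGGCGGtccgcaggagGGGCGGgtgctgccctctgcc
Tfeb downstream start, chr17:47785494-47785743, plus strand: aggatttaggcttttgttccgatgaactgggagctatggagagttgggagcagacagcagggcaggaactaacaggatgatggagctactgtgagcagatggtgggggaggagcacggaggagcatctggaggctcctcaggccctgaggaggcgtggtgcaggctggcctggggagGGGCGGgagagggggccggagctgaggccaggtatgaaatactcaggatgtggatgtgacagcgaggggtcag

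The Ctsd window held the CLEAR core at -99 to -92 from the start, a further E-box at -245 to -240 and GC boxes. Wipi1 showed 8 GC boxes, and the Gabarapl2 and Tfeb windows held GC boxes as the only matches. RefSeq gave 37 such windows for 31 of the 36 genes. The CLEAR core was in 2 of the 37, those of Ctsd and Atg3, and in 0.785% of all 32851 windows of this length. The longer 10-base CLEAR consensus, which contains this core, was in 0 of the 37 and in 0.24% of all windows. The Ctsd and Atg3 windows thus held the core but not the longer element. A count of 2 is small, and its difference from the share of all windows was not tested. The E-box was in 5 of 37, of Atg3, Atg5, Atg7, Ctsd and Lamp1, against 6.02% of all windows. The p53 decamer was in 1 of 37, at a start of Vmp1 (7.13% of all), and the GC box in 24 of 37 (32.7% of all). These are matches of letters in a short window, and p53 elements outside it were not searched.

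Among the genes that start autophagy, Ulk1, which encodes the initiating kinase, came closest to the step. It stood at 42.1 FPKM in treated and 40.6 FPKM in untreated p53-/- cells, and at 111 FPKM in treated and 61.8 FPKM in untreated p53+/+ cells. Both p53+/+ levels were above both p53-/- levels, and the difference after Adriamycin was 0.05 in p53-/- and 0.84 in p53+/+ cells. In both p53+/+ libraries its FPKM exceeded its deposited upper bound. Its paralog Ulk2 stood far lower, at 2.45 FPKM in treated and 1.97 FPKM in untreated p53-/- cells and at 1.70 FPKM in treated and 0.971 FPKM in untreated p53+/+ cells. The order of the genotypes was thus opposite for the paralogs. Atg13, the scaffold of the kinase complex, lay between 17.5 and 23.4 FPKM in all 4 libraries.

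In the PI 3-kinase complex, Uvrag was the gene nearest to the step. Its product joins Beclin 1 in the form of the complex that acts on endosomes and autophagosome maturation. It stood at 6.34 FPKM (5.52 to 7.01) in treated and 5.69 FPKM (4.94 to 6.28) in untreated p53-/- cells, while it stood at 13.5 FPKM (12.2 to 14.3) in treated and 7.11 FPKM (6.27 to 7.69) in untreated p53+/+ cells. The treated p53+/+ bounds lay above the bounds of the other 3 libraries. The difference was 0.13 in p53-/- and 0.84 in p53+/+ cells. Atg14, the subunit that directs the complex to autophagosome formation, stood at 10.5 FPKM in treated and 9.48 FPKM in untreated p53-/- cells, against 15.9 FPKM in treated and 16.9 FPKM in untreated p53+/+ cells, so it differed by genotype more than by treatment. Becn1, Pik3c3 and Ambra1, for Beclin 1, the catalytic subunit and a Beclin 1 activator, had responses between -0.24 and 0.20 in both genotypes. Becn1 stood at 33.7 FPKM in treated and 30.4 FPKM in untreated p53-/- cells, against 25.7 FPKM in treated and 22.7 FPKM in untreated p53+/+ cells. Pik3c3 stood at 15.5 FPKM in treated and 13.4 FPKM in untreated p53-/- cells, against 17.2 FPKM in treated and 19.0 FPKM in untreated p53+/+ cells, so the order of the genotypes was opposite for the kinase and its partner Beclin 1.

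Of the lipid transfer genes, Atg2b and Atg2a went different ways. Atg2b stood at 7.17 FPKM (6.74 to 7.57) in treated and 7.06 FPKM (6.64 to 7.48) in untreated p53-/- cells, while it stood at 16.4 FPKM (15.7 to 16.96) in treated and 9.63 FPKM (9.15 to 10.05) in untreated p53+/+ cells. Its difference in p53+/+ cells was 0.71, short of the step. Atg2a stood at 17.4 FPKM in both p53-/- libraries. In p53+/+ cells it stood at 14.8 FPKM in treated and 18.9 FPKM in untreated cells, a difference of -0.34. Atg9a, the membrane-spanning lipid scramblase, had the largest difference of the 36 in p53-/- cells, 0.41, and 0.33 in p53+/+ cells. Wipi2 and Vmp1, an effector of the phosphoinositide and a scramblase of the endoplasmic reticulum, had responses between -0.04 and 0.15 in both genotypes. Vmp1 stood at 25.1 FPKM in treated and 22.4 FPKM in untreated p53-/- cells, against 15.0 FPKM in treated and 15.4 FPKM in untreated p53+/+ cells, both lower than either p53-/- library.

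In the conjugation machinery, ATG7 activates the ubiquitin-like proteins, ATG3 and ATG10 pass them on, and ATG12, ATG5 and ATG16L1 form the complex that places ATG8 on membranes. None of its 10 genes, Atg3, Atg4a, Atg4b, Atg4c, Atg4d, Atg5, Atg7, Atg10, Atg12 and Atg16l1, was past the step in any of the 5 comparisons. After Adriamycin, the background over all genes was 0.377% higher and 0.461% lower in p53-/- cells and 11.4% higher and 2.78% lower in p53+/+ cells. Between the treated genotypes it was 6.72% higher and 13.0% lower, and between the untreated ones 3.51% and 3.14%. For the difference of responses it was 3.29% and 10.4%. With 10 genes, a count of 0 cannot be set apart from any of these shares. Their levels ran from 0.899 FPKM for Atg4a to 19.6 FPKM for Atg16l1, both in treated p53-/- cells. The responses ran from -0.12 to 0.28 in p53-/- cells and from -0.25 to 0.44 in p53+/+ cells. The top of the p53+/+ range was Atg4a, an ATG8-processing protease, at 0.899 FPKM in treated and 0.905 FPKM in untreated p53-/- cells while it stood at 1.70 FPKM (1.30 to 2.09) in treated and 0.992 FPKM (0.714 to 1.28) in untreated p53+/+ cells. On the per-length FPKM scale Atg4d and Atg4b made up most of the 4 ATG4 proteases, with 50.9% and 38.7% of their sum in treated p53-/- cells and 57.3% and 33.2% in untreated p53+/+ cells.

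The 5 ATG8 family genes encode the small ubiquitin-like proteins that are joined to membrane lipid, and they did not move as one. Map1lc3a, for LC3A, stood at 50.8 FPKM in treated and 51.9 FPKM in untreated p53-/- cells, a response of -0.03. In p53+/+ cells it stood at 35.8 FPKM in treated and 23.1 FPKM in untreated cells, a response of 0.61. Gabarapl1 stood at 20.0 FPKM (18.3 to 21.7) in treated and 19.9 FPKM (18.2 to 21.6) in untreated p53-/- cells, while it stood at 9.70 FPKM (8.70 to 10.7) in treated and 16.2 FPKM (14.8 to 17.5) in untreated p53+/+ cells. The treated p53+/+ library was thus the lowest for Gabarapl1 and for Gabarapl2, while for Map1lc3a the untreated p53+/+ library was the lowest. Map1lc3b and Gabarap stood higher in both p53-/- libraries than in either p53+/+ library, with responses between -0.18 and 0.21. Map1lc3b, for LC3B, the common marker of autophagosomes, stood at 69.3 FPKM in treated and 60.2 FPKM in untreated p53-/- cells, against 38.0 FPKM in treated and 43.2 FPKM in untreated p53+/+ cells. Gabarap stood at 68.6 FPKM in treated and 59.3 FPKM in untreated p53-/- cells, against 48.0 FPKM in treated and 44.0 FPKM in untreated p53+/+ cells. The FPKM of both lay outside their bounds. Gabarapl2 made up 20.0% of the family's summed FPKM in treated and 35.2% in untreated p53+/+ cells, beside 16.7% in treated and 16.5% in untreated p53-/- cells. The family as a whole summed to 251 FPKM in treated and 229 FPKM in untreated p53-/- cells, and to 164 FPKM in treated and 195 FPKM in untreated p53+/+ cells.

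**Figure D2:**
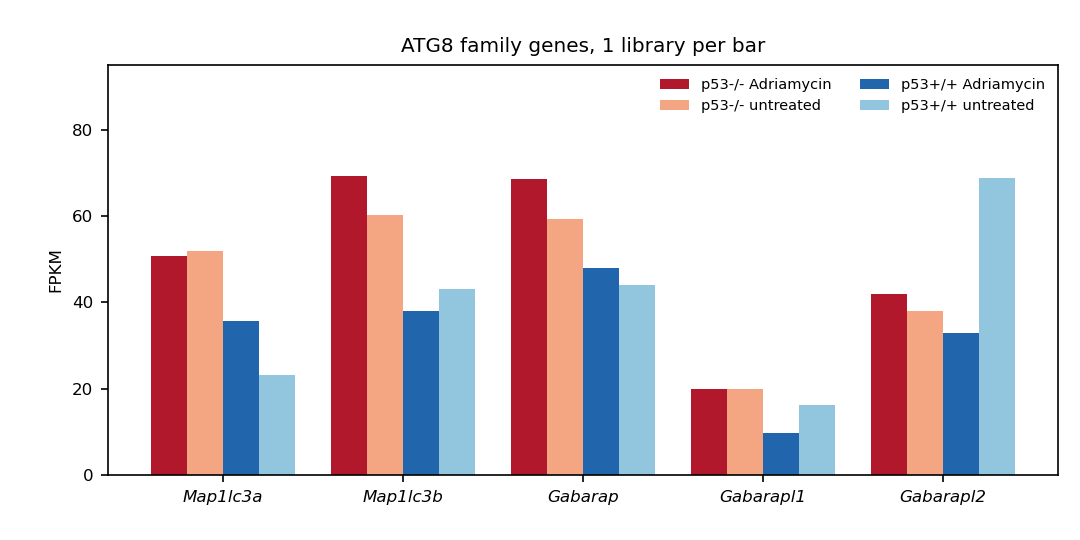
FPKM of the 5 ATG8 family genes in the 4 libraries (1 bar per library, no error bars because there are no replicates). The Gabarapl2 bar of untreated p53+/+ cells, at 68.8 FPKM, stands above its other 3 bars, which reach 41.9 FPKM at most.

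The DRAM genes and the lysosomal genes complete the set. Dram1 (chromosome 10, 87785549 to 87819820) stood at 0.402 FPKM (0.249 to 0.545) in treated and 0.554 FPKM (0.363 to 0.743) in untreated p53-/- cells, while it stood at 3.68 FPKM (3.09 to 4.25) in treated and 1.99 FPKM (1.61 to 2.35) in untreated p53+/+ cells. All p53+/+ bounds lay above all p53-/- bounds. The response was -0.15 in p53-/- and 0.65 in p53+/+ cells, short of the step. With a pseudocount of 0.1 FPKM the p53+/+ response was 0.85, still short of it. The treated p53+/+ level was 1.85 times the untreated one. Dram2, a related lysosomal membrane gene, stood between 3.25 and 4.93 FPKM with no such order. Lamp1 and Lamp2, for lysosomal membrane glycoproteins, had responses between -0.01 and 0.23 in both genotypes. Lamp1 stood at 277 FPKM in treated and 273 FPKM in untreated p53-/- cells, against 166 FPKM in treated and 167 FPKM in untreated p53+/+ cells, with FPKM outside its bounds, and Lamp2 was likewise above both p53+/+ levels in both p53-/- libraries. Among the 3 lysosomal genes Ctsd alone was past the step.

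In p53-/- cells 0 of the 36 genes were past the step in either direction after Adriamycin. This is near what the whole table gave, with 0.377% of genes higher and 0.461% lower. All 36 moved by less than 0.5, from -0.15 for Dram1 to 0.41 for Atg9a, and 26 of them lay above 0. Their median was 0.11, beside 0.07 over all genes.

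**Figure D3:**
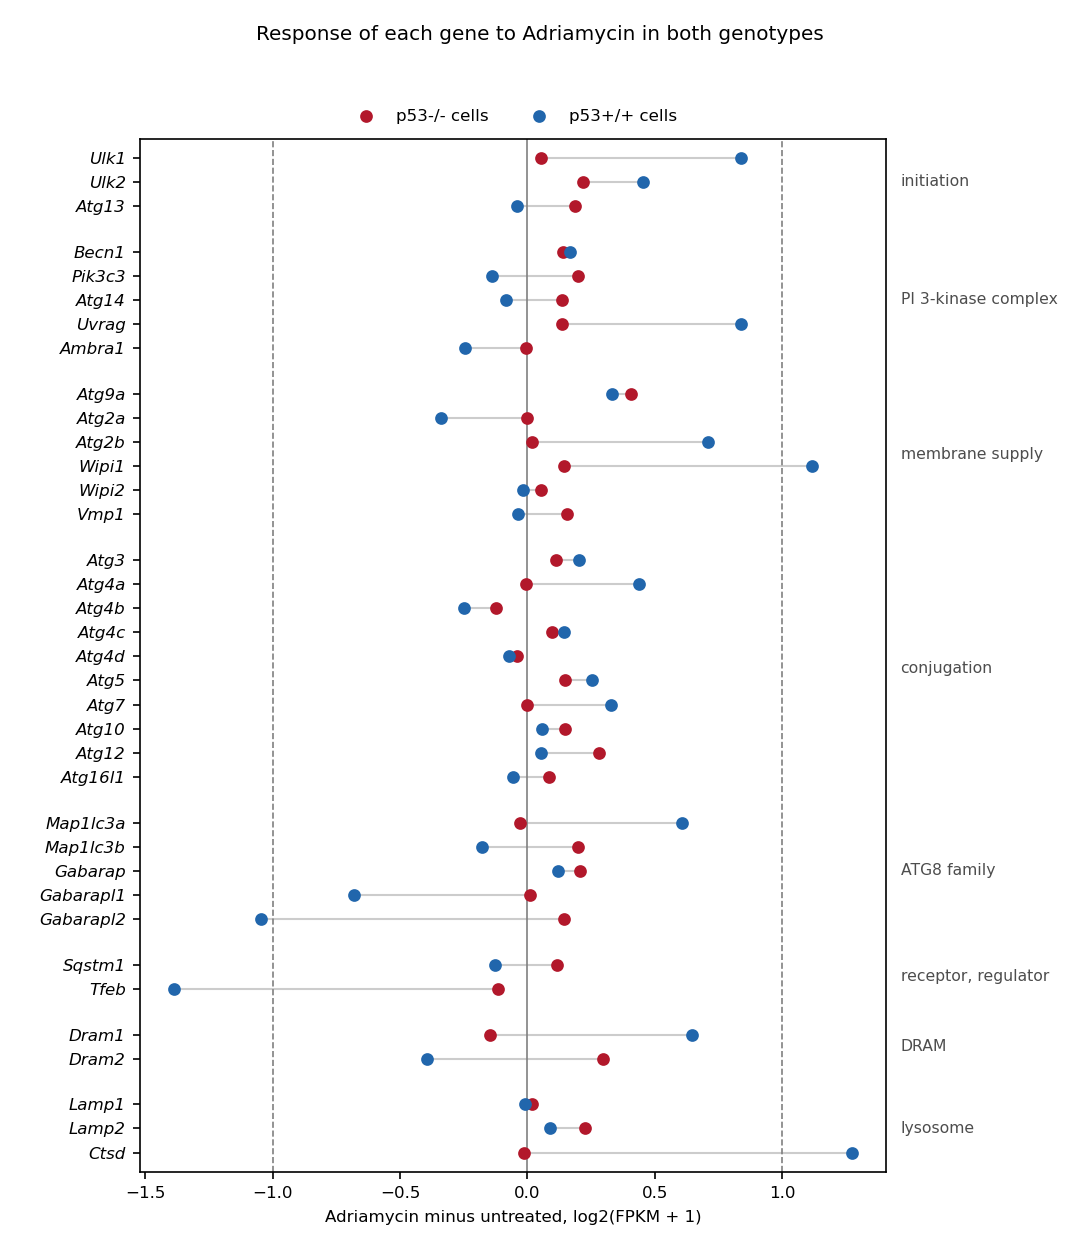
Difference between Adriamycin and untreated cells, on the log2(FPKM + 1) scale, for each of the 36 genes in p53-/- and p53+/+ cells, with dashed lines at the step of 1. The p53-/- points lie between -0.15 and 0.41, and the p53+/+ points between -1.39 for Tfeb and 1.27 for Ctsd.

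Subtracting the p53+/+ response from the p53-/- response gave 2 of 36 genes higher, Tfeb at 1.27 and Gabarapl2 at 1.19, and 1 lower, Ctsd at -1.29. Over all genes 3.29% were higher and 10.4% lower. Wipi1 stood at -0.97, just short of the step, and past it at -1.06 with a pseudocount of 0.1 FPKM. Higher ones made up 24.0% of all genes past the step, against 35.2% with quantile normalization. Tfeb stood at 0.97 with a pseudocount of 5 FPKM, short of the step.

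The deposited 95% bounds cover counting and read assignment only. Over the whole tables, 1525 (untreated p53-/-) to 2036 (untreated p53+/+) transcripts a library exceeded the upper limit deposited for them. Of the 36 genes, 7 lay outside their bounds in at least 1 library. The bounds are therefore an uncertain guide to how well a gene was measured, also for genes that lie within them. For 21 of the 36 genes, with 1 transcript each and an FPKM within its bounds in every library, the bounds could be compared. After Adriamycin in p53-/- cells the bounds of 2 genes were apart and higher, Atg9a and Atg12, and of 0 apart and lower, against 12.8% and 4.74% of 7633 such genes. In p53+/+ cells 8 were apart and higher, Ulk2, Uvrag, Atg9a, Atg2b, Wipi1, Atg4a, Atg5 and Dram1, and 2 apart and lower, Atg2a and Gabarapl1, against 37.3% and 23.2% of such genes. Between the treated genotypes 5 were apart and higher in p53-/- cells and 10 apart and lower, against 29.3% and 36.9%. Between the untreated genotypes 5 were apart and higher and 7 apart and lower, against 21.7% and 28.7%. Bounds that are apart say nothing of the spread between cultures.

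**Figure D4:**
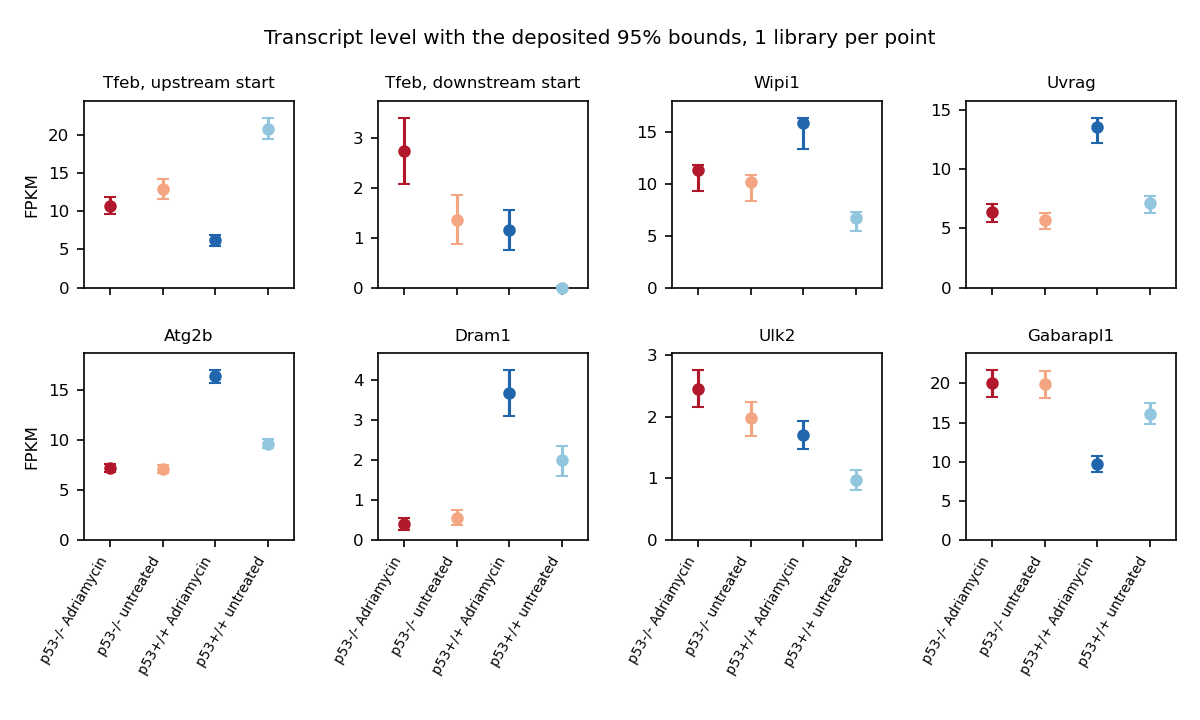
FPKM of 8 transcripts in the 4 libraries with the deposited 95% bounds (vertical bars, counting and assignment error of 1 library), each panel with its own axis from 0. Wipi1, Uvrag, Atg2b and Dram1 are highest in treated p53+/+ cells, while the upstream Tfeb transcript and Gabarapl1 are lowest there.

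Without treatment, 1 of the 36 genes was higher in p53-/- than in p53+/+ cells, and 0 were lower. Over all genes 3.51% were higher and 3.14% lower. The gene past the step was Map1lc3a (chromosome 2, 155102100 to 155103809), with 51.9 FPKM in p53-/- against 23.1 FPKM in p53+/+ cells, a difference of 1.13 and a ratio of 2.24. Sqstm1 had 140.0 FPKM in p53-/- against 77.4 FPKM in p53+/+ cells (0.85), and Lamp1 273 against 167 FPKM (0.71). On the lower side Dram1 stood at -0.94, and at -1.68 with a pseudocount of 0.1 FPKM. The median over the 36 was -0.09, beside -0.05 over all genes.

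After treatment, 1 of the 36 was higher in p53-/- cells and 3 were lower. Over all genes 6.72% were higher and 13.0% lower. The higher gene was Sqstm1 (chromosome 11, 50013654 to 50024292), with 152 FPKM in p53-/- against 70.7 FPKM in p53+/+ cells, a difference of 1.09 and a ratio of 2.15. Its FPKM lay outside its bounds. The lower ones were Dram1 (-1.74), Ulk1 (-1.38; chromosome 5, 111213508 to 111239100) and Atg2b (-1.09; chromosome 12, 106851749 to 106923451), of which Dram1 stood at -0.68 and Atg2b at -0.81 with a pseudocount of 5 FPKM. Treated Ulk1 was 0.378 of its p53+/+ level in p53-/- cells, and treated Dram1 0.109. The genes just short of the step were Uvrag at -0.98 and Gabarapl1 at 0.97. The median over the 36 was 0.17, beside -0.02 over all genes, and became -0.02 over the 29 genes whose FPKM lay within their bounds. Higher ones made up 34.0% of all genes past the step. With quantile normalization, which shifted the median of all genes by 0.11, they made up 45.6%. Fibroblast markers were higher in both p53-/- libraries, with 11 of 13 past the step among treated and 12 of 13 among untreated cells, and 8 and 7 of 10 primitive endoderm markers were lower. Their part in the genotype differences of Sqstm1, Map1lc3a, Lamp1 and the others was not tested. Macrophage markers, of a cell type rich in lysosomes, had 2 of 9 past 1 FPKM in any library, Laptm5 and Fcer1g. They summed to 7.46 FPKM in treated and 6.77 FPKM in untreated p53-/- cells, against 74.9 FPKM in treated and 46.9 FPKM in untreated p53+/+ cells, of which Laptm5 made 73.0 and 45.0 FPKM. Ptprc, Lyz2, Tyrobp and Aif1 were listed at 0 in both p53+/+ libraries.

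Several genes had more than 1 transcript. Tfeb was measured as 3, of which NM_001161723 stayed at or under 0.387 FPKM. The upstream one, NM_001161722, held 79.5% of the summed level in treated and 88.1% in untreated p53-/- cells, and 84.1% in treated and nearly all of it in untreated p53+/+ cells. It stood at 10.7 FPKM (9.59 to 11.8) in treated and 12.9 FPKM (11.7 to 14.2) in untreated p53-/- cells, while it stood at 6.18 FPKM (5.41 to 6.96) in treated and 20.8 FPKM (19.4 to 22.2) in untreated p53+/+ cells. The downstream one, NM_011549, stood at 2.76 FPKM (2.09 to 3.41) in treated and 1.36 FPKM (0.881 to 1.86) in untreated p53-/- cells, while it stood at 1.16 FPKM (0.761 to 1.56) in treated and 0.000495 FPKM (0 to 0.0350) in untreated p53+/+ cells. So the lower Tfeb level of treated p53+/+ cells was a matter of the upstream transcript, while the downstream one was near 0 only in untreated p53+/+ cells. Their starts lie 48707 bases apart in the deposited tables and in the reference alike, which matches each to a promoter printed above.

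Lamp2 and Ambra1 also divided between transcripts. NM_001017959, the shorter of the Lamp2 transcripts, stood at 9.05 FPKM in treated and 8.01 FPKM in untreated p53-/- cells, against 4.01 FPKM in treated and 4.96 FPKM in untreated p53+/+ cells. NM_010685 stood at 8.16 FPKM in treated and 6.55 FPKM in untreated p53-/- cells, against 6.35 FPKM in treated and 4.72 FPKM in untreated p53+/+ cells. The shorter transcript made up 38.7% of Lamp2 in treated p53+/+ cells and 51.2% to 55.0% in the other 3 libraries. For Ambra1, NM_172669 stood at 8.85 FPKM in treated and 8.41 FPKM in untreated p53-/- cells, and at 4.72 FPKM in treated and 9.29 FPKM in untreated p53+/+ cells, while the sum over its transcripts had a response of -0.24 there. How reads were divided between overlapping transcripts is an estimate of the authors' software.

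Other genes of the pathway were looked up by fixed lists. The cargo receptors had 0 of 16 genes past the step after Adriamycin in either genotype, and the proton pump (V-ATPase) 0 of 17. These counts, and those of 1 gene a list that follow, stand beside 11.4% of all genes higher and 2.78% lower in p53+/+ cells, and 0.377% and 0.461% in p53-/- cells, and are too small to be set apart from them. Among 18 other autophagy genes 1 was higher in p53+/+ cells, Atg9b, a paralog of Atg9a, at 1.37 FPKM in treated and 0.899 FPKM in untreated p53-/- cells and at 7.46 FPKM in treated and 1.32 FPKM in untreated p53+/+ cells. Of 20 lysosomal membrane genes 1 was higher, Cln3, whose human counterpart is mutated in Batten disease, at 7.68 FPKM in treated and 8.12 FPKM in untreated p53-/- cells and at 13.2 FPKM in treated and 5.16 FPKM in untreated p53+/+ cells. Of 24 nutrient signalling genes 1 was higher, Flcn, for folliculin, a negative regulator of TFEB and its relative TFE3. Flcn stood at 16.9 FPKM in treated and 16.3 FPKM in untreated p53-/- cells, and at 43.2 FPKM in treated and 13.2 FPKM in untreated p53+/+ cells, a p53+/+ response of 1.64. Flcn was highest and Tfeb lowest in treated p53+/+ cells. A link between the levels of these genes was not tested.

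Lysosomal hydrolases held the largest responses of the pathway. After Adriamycin in p53+/+ cells 5 of 38 were higher and 1 was lower, 13.2% and 2.63%, close to the 11.4% and 2.78% of all genes, and in p53-/- cells 0 were past the step. The higher ones were Man2b1, Gaa, Fuca1, Naglu and Ctsf and the lower one Acp5, of which Ctsf and Acp5 are named after their values were seen. The largest was Man2b1, for lysosomal alpha-mannosidase, at 16.5 FPKM in treated and 16.1 FPKM in untreated p53-/- cells and at 119.7 FPKM in treated and 13.5 FPKM in untreated p53+/+ cells. Its response was 0.03 in p53-/- and 3.05 in p53+/+ cells, above that of any of the 36 genes, though its FPKM lay outside its bounds, as did those of Fuca1, Vamp8 and Manba below. Gaa, for the acid alpha-glucosidase that degrades glycogen, stood at 31.0 FPKM in treated and 29.8 FPKM in untreated p53-/- cells and at 80.02 FPKM in treated and 18.5 FPKM in untreated p53+/+ cells. Fuca1, an alpha-fucosidase gene, and Naglu, for an enzyme of heparan sulfate breakdown, responded by 1.61 and 1.52 in p53+/+ cells and by 0.21 and 0.05 in p53-/- cells. Without treatment, Vamp8, a SNARE of vesicle fusion with the lysosome, was higher in p53-/- cells (20.7 against 6.64 FPKM in p53+/+ cells). So was Atp6v0c, a membrane subunit of the proton pump (54.7 against 24.1 FPKM). Among treated cells Vamp8 stood at 20.5 FPKM in p53-/- against 6.23 FPKM in p53+/+ cells. Treated Atp6v0c stood at 29.5 against 23.7 FPKM, a difference of 0.31, short of the step. Manba, for a beta-mannosidase, was lower in untreated p53-/- cells (20.9 against 50.4 FPKM in p53+/+ cells). Among treated cells it stood at 19.5 against 31.7 FPKM, a difference of -0.67, short of the step.

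**Figure D5:**
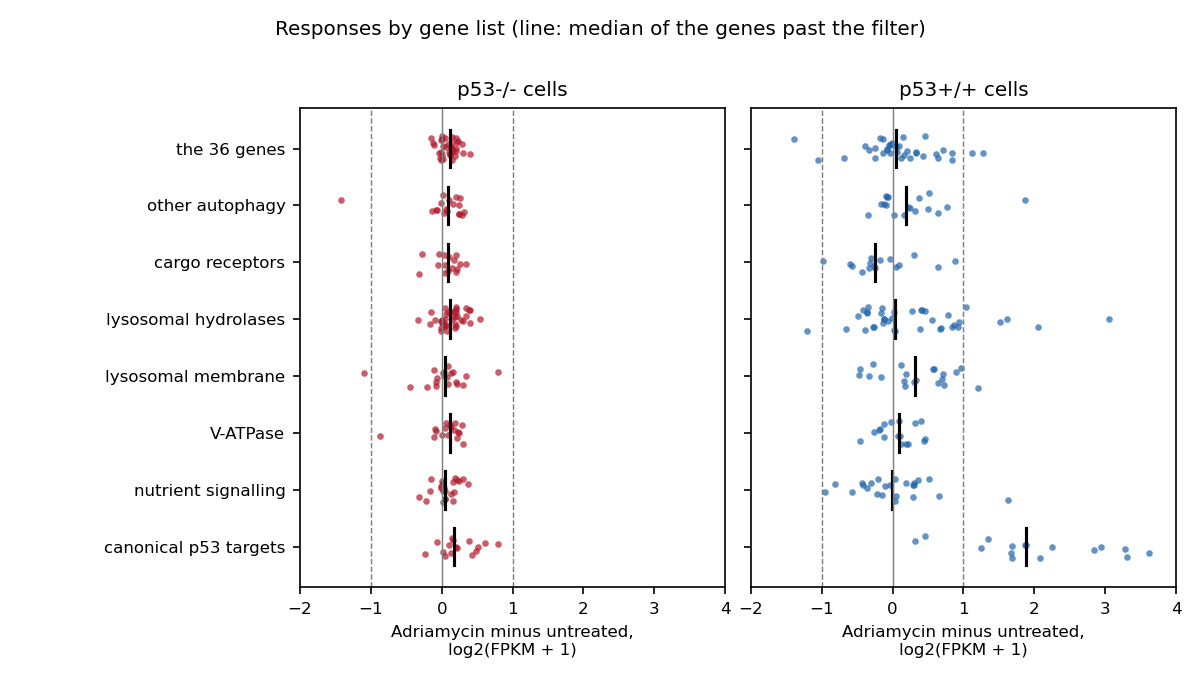
Difference between Adriamycin and untreated cells, on the log2(FPKM + 1) scale, in p53-/- cells (left) and p53+/+ cells (right) for the 36 genes and the other lists; each point is a gene that reached 1 FPKM in a library, the black line is the list's median and dashed lines mark the step of 1. The canonical p53 targets have medians of 0.18 and 1.88, the 36 genes medians of 0.11 and 0.06.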

How the data were processed

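Poly(A) RNA of 4 cultures was sequenced, 1 library per group. Per the file headers, the authors deposited FPKM values for each library in the Cufflinks transcript layout, with lower and upper bounds of each FPKM, the read coverage and the length of each RefSeq transcript. CASAVA 1.8.1, TopHat2 2.0.5, TopHat, Cufflinks and the build mm9 are named, with no role or order, per the submitters' processing notes. The Cufflinks version and the annotation are not given in the sources used here. An exome enrichment kit is named per the labels' protocols and its part in the values was not tested. FPKM tables hold no counts, so no count test was run. Depth was taken as deposited coverage times length.

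Names came from a RefSeq gene table of GRCm38 for 30227 of 30769 rows and from GENCODE M21 for 180 more. Gene coordinates are the files' own (mm9), 1-based. Rows of short RNAs (806) were left out. FPKM was summed per gene, and genes with at least 1 FPKM in a library were kept. All 36 members are named. From each other list at most 4 genes were named per comparison, those with the largest p53+/+ response past the step and then the largest untreated genotype difference past it, at 5 FPKM or more. A gene that this rule names is not reported here. The members and the 11 other lists were chosen with earlier results of these data known. Of the list genes 1, Cd68, was not matched. Python 3.11.15, pandas 2.3.3, numpy 2.4.6 and matplotlib 3.10.9 were used, and the calculation was tested on simulated data. The alternatives were other pseudocounts (0.1 and 5 FPKM), no filter or one of 5 FPKM, the main transcript, median ratio scaling, quantile normalization, only genes within their own bounds, and a step of 1.5-fold.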

Additional observations from a re-analysis of the deposited data

Results flagged for a closer look

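For 3 flagged genes past the step in p53+/+ cells after Adriamycin, the response in p53-/- cells was near 0 and of the other sign. Other listed genes had this pattern too, such as the p53 target Sesn2, at -0.07 in p53-/- and 1.69 in p53+/+ cells. The share of all genes with it was not counted, and a value near 0 can take either sign. The 3 genes are thus not set apart by this pattern. With 1 library behind each value, the difference between the genotypes was not tested, and no opposite movement is shown. Ctsd had a response of -0.01 in p53-/- and 1.27 in p53+/+ cells, a difference of -1.29. Gabarapl2 had 0.14 in p53-/- and -1.04 in p53+/+ cells, a difference of 1.19. Cln3 had -0.07 in p53-/- and 1.20 in p53+/+ cells, a difference of -1.27. Under quantile normalization the p53-/- value of Ctsd was 0.10, of the same sign as its p53+/+ value.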

How the results depend on the processing

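Counts of the 36 genes past the step were small, so that 1 gene near it changes them. With a pseudocount of 0.1 FPKM, the genes higher in treated p53-/- cells numbered 2, those lower in untreated p53-/- cells 1, and those lower in the difference of responses 3. The shares over all genes there were 9.89%, 6.81% and 14.4%, in that order. With a pseudocount of 5 FPKM, the p53+/+ response held 1 higher and 1 lower gene, the treated genotype difference 1 lower and the difference of responses 1 higher. Over all genes the shares were 4.82%, 1.18%, 6.11% and 1.22%, in that order. The main transcript alone and quantile normalization each gave 2 genes higher in treated p53-/- cells, beside 7.08% and 9.32% of all genes. Quantile normalization gave 1 lower gene in the p53+/+ response, beside 4.74%. Over the 29 genes within their own bounds, the p53+/+ response held 1 higher and 1 lower gene, the treated genotype difference 0 higher, and the difference of responses 1 higher and 0 lower; Ctsd, Gabarapl2, Sqstm1 and Ulk1 are not among the 29, and without Ulk1 the treated genotype difference held 2 lower genes. At a step of 1.5-fold, 7 genes were higher in the p53+/+ response, beside 21.7% of all genes. The treated genotype difference held 7 higher and 5 lower, beside 17.7% and 23.4%. The untreated genotype difference held 4 higher and 4 lower, beside 10.3% and 11.0%. In the difference of responses 4 were higher and 7 lower, beside 13.8% and 19.9%. Counts this small are not set apart from these shares. No filter, a filter of 5 FPKM and median ratio scaling left all 10 counts within 1.5-fold of the reported ones, and no gene of those past the step reversed its direction under any alternative run. Over all genes, some counts moved by over 1.5 times too. The p53-/- response held 49 higher and 60 lower genes, with 188 and 97 at a pseudocount of 0.1 FPKM, 20 and 31 at one of 5 FPKM, 75 and 91 by the main transcript, 26 and 54 under the filter of 5 FPKM, 33 and 25 within bounds and 207 and 193 at the 1.5-fold step. The p53+/+ response held 1481 and 362, with 2154 and 613, then 627 and 153, at those pseudocounts, 1099 and 617 under quantile normalization and 2825 and 1467 at the 1.5-fold step. The treated genotype difference held 875 and 1697, with 336 and 795 at 5 FPKM and 2306 and 3050 at the 1.5-fold step. The untreated one held 457 and 409, with 854 and 886, then 136 and 122, at those pseudocounts, 289 and 342 under the filter of 5 FPKM and 1339 and 1433 at the 1.5-fold step. The difference of responses held 428 and 1357, with 758 and 1875, then 159 and 612, at those pseudocounts and 1796 and 2585 at the 1.5-fold step. No paired analysis was possible because each group has 1 library. Leaving out a library was not possible for the same reason.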

Other observations

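Between the treated genotypes 4 of 38 lysosomal hydrolases were higher and 8 lower in p53-/- cells (10.5% and 21.1%), against 6.72% and 13.0% of all genes. More hydrolases were past the step there than in any other comparison, but the same was true of all genes. Of the cargo receptors 2 of 16 were lower there, and both were chosen for naming after their values were seen. Ccpg1, a receptor for parts of the endoplasmic reticulum, stood at 12.8 FPKM in treated and 12.0 FPKM in untreated p53-/- cells, and at 31.4 FPKM in treated and 19.7 FPKM in untreated p53+/+ cells. Pink1, the kinase gene of mitophagy, stood at 8.53 FPKM in treated and 8.20 FPKM in untreated p53-/- cells, and at 20.3 FPKM in treated and 10.6 FPKM in untreated p53+/+ cells.

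In p53-/- cells 1 of 18 other autophagy genes, Rab7, and 1 of 20 lysosomal membrane genes, Cd63, were lower after Adriamycin. Over all genes 0.461% were lower there, and 1 gene a list is too few to be set apart from that share. Both genes were also named after their values were seen. Rab7, for a GTPase of late endosomes, stood at 24.0 FPKM in treated and 66.0 FPKM in untreated p53-/- cells, and at 59.7 FPKM in treated and 63.5 FPKM in untreated p53+/+ cells, with FPKM outside its bounds. Cd63, for a tetraspanin of late endosomes, stood at 14.6 FPKM in treated and 32.6 FPKM in untreated p53-/- cells, and at 12.5 FPKM in treated and 17.4 FPKM in untreated p53+/+ cells.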
